A study of Mus musculus with 12 samples.

Results

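Loss of Pax9 in the forming palate was examined in 6 of the 12 embryos sequenced: 3 homozygous mutants (Pax9-/-) and 3 controls, none of them exposed to the drug given to the other 6. All carried the C57BL/6 strain label and were taken at the stage labelled embryonic day 14. Each library was made from the micro-dissected palate shelves of a single embryo. Samples were assigned by their genotype and treatment labels. The sample titles carry a number that ties mutants to controls. One mutant (CTR-Pax9-mt-389-2) shares it with 1 Pax9+/+ control (CTR-Pax9-WT-389-5), called the wild-type set here. The other 2 mutants (CTR-Pax9-mt-393-6 and CTR-Pax9-mt-393-8) share another with 2 Pax9+/- controls (CTR-Pax9-Het-393-4 and CTR-Pax9-Het-393-5), called the heterozygote set. Among these 6 embryos the genotype of the control and the title number therefore cannot be told apart. The labels do not describe the mutant allele. The other 6 embryos (3 Pax9-/- mutants and 3 controls, 2 Pax9+/+ and 1 Pax9+/-) came from Pax9+/- dams that received the Wnt agonist WAY-262611 through the tail vein each day from E10.5 to E14. They are used here for the residual spread and for a side-by-side look at the same genes.

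The secondary palate grows as a pair of shelves from the maxillary processes. The shelves are neural-crest mesenchyme covered by oral and nasal epithelium, and they extend, elevate and fuse at the midline. Pax9 is a paired-domain transcription factor of this mesenchyme and of the mesenchyme around tooth germs, and mice without it have a cleft palate and no teeth. In tooth mesenchyme Pax9 acts together with the homeobox factor Msx1 to maintain Bmp4, a secreted growth factor that signals back to the epithelium. Osr2, a zinc-finger factor expressed across the shelf, restrains tooth formation on the palatal side and promotes shelf growth. Messenger RNA is compared here per unit of RNA in bulk tissue, so fewer cells of a type and less RNA per cell cannot be told apart.

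Expression is given in FPKM (a read count divided by gene length and by library size), and differences as mutant minus control on the log2(FPKM + 0.5) scale, which understates changes of genes near the floor. Depth in the 6 untreated libraries ran from 38.73 to 49.81 M recovered reads. The first principal component (52.5% of the variance over 12 libraries) separated 4 libraries whose column names share a prefix, among them the wild-type set, from 8 libraries with another prefix, among them the heterozygote set. Among untreated embryos title number and column prefix are the same split, so mutants were compared with controls within title number. Deviations from the group means of same-titled untreated samples correlated with r = 0.749. Untreated mutant 3 had 47.2 FPKM summed over 4 Y-linked genes and 0.0267 FPKM of Xist, while the other 5 untreated embryos had at most 0.0131 FPKM of the Y-linked genes and 96.6 to 125 FPKM of Xist. The palatal mesenchyme markers Prrx1 (67.3 to 89 FPKM), Twist1 (107 to 123) and Meox2 (14.2 to 18) were present in all 6 libraries, and so were the epithelial keratins Krt5 (53 to 223) and Krt14 (73 to 219).

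The Pax9 transcript (chromosome 12, 56691767 to 56712822 in GRCm38, plus strand) was lower in every mutant than in every control. It measured 7.3 FPKM in the mutant of the wild-type set and 5.47 and 4.75 in the mutants of the heterozygote set, against 37.5 in the wild type and 21.1 and 20.3 in the heterozygotes. The groups did not overlap, and some signal remained in all 3 mutants. The wild type stood highest among controls, and the mutant of its set stood highest among mutants. The difference was -2.04 ± 0.11 (SE; adjusted p = 0.00012 in limma), or 4.12-fold, and it was -2.28 against the wild type and -1.92 against the heterozygotes. Where in the gene the reads of the mutants fall cannot be read from one value per gene.

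Across all genes, 74 of 14107 tested passed an adjusted p of 0.05 (0.525%), 32 higher (0.227%) and 42 lower (0.298%) in mutants. Most changes were small: the median size of the 74 was 0.57 and the smallest 0.24. On the log2(FPKM + 0.5) scale, which understates changes of low genes, 9 genes changed at least 2-fold, 8 of them lower. At an unadjusted p under 0.05 there were 1316 genes (9.33%). Without the title number in the model 13 genes passed (0.0922%), 2 higher and 11 lower, and all 13 were among the 74. In all 74 every mutant lay on the same side of the controls of its own title number, which held for 27.7% of genes tested (9.17% with mutants above and 18.5% with mutants below). The excess of negative differences over all genes depended on scaling. The main fit had 5993 positive and 8114 negative differences, and median-ratio rescaling gave 7288 and 6819. In 54 of the 74 the 3 mutants and 3 controls did not overlap at all, against 9.41% of genes tested. The count moved with single libraries. Without untreated mutant 1, 2 or 3 it was 42, 33 and 24, without untreated control 1, 2 or 3 it was 42, 24 and 17, without treated mutant 2 it was 46, and without treated control 2 it was 149. A model of recovered reads (limma-voom) gave 127. Fitted on the 6 untreated samples alone, 67 genes passed, of which 45 were among the 74, so 29 of the 74 lost their call. Of the 46 called genes named by rule, Pax9, Hs3st6, Tfap2b, Prr15, Bmp4, Sostdc1 and Lrrtm1 passed under all 22 alternative settings, and Cbln4 under the 21 that kept it (a filter of 5 FPKM removed it). Among the others, Msx1, Dsc3, Aard, Tbx15, Chodl and Col23a1 lost their call under 1 setting, the model without title number.

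**Figure D1:**
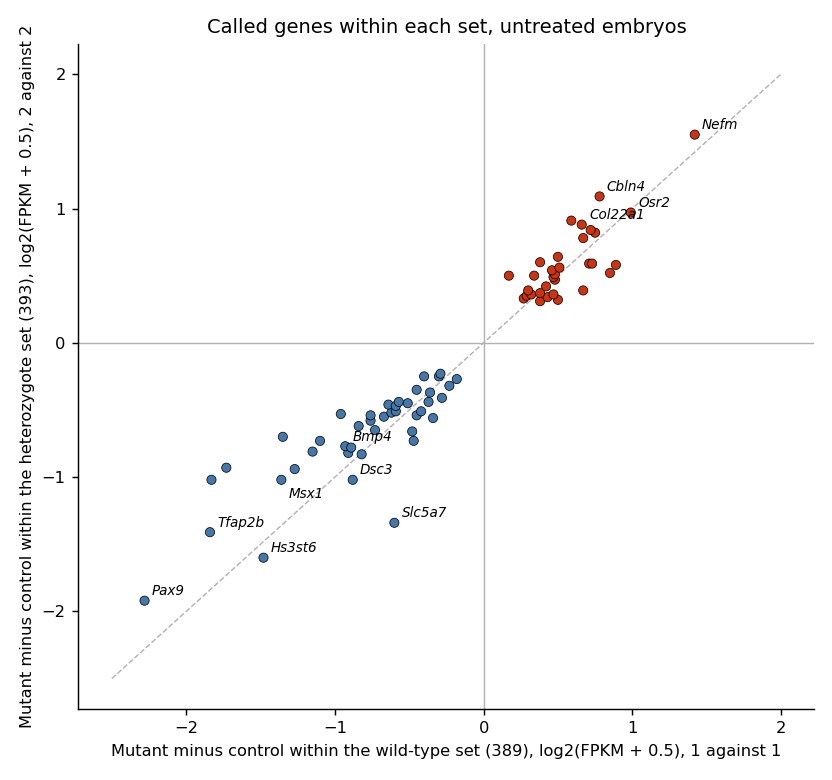
Difference of mutant minus control within the wild-type set (x axis, 1 mutant against 1 wild type) and within the heterozygote set (y axis, 2 mutants against 2 heterozygotes) for the 74 genes that passed, on the log2(FPKM + 0.5) scale; red points were higher and blue points lower in mutants. Each point has the same sign on both axes, from Pax9 at -2.28 and -1.92 to Nefm at 1.42 and 1.55, and the dashed line marks equal differences.

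The regulators Msx1, Bmp4 and Tfap2b fell, and for each of them every mutant was below every control. Msx1 (chromosome 5, 37820485 to 37824583, minus strand) measured 29.9 FPKM in the mutant of the wild-type set and 24.9 and 25.7 in those of the heterozygote set, against 77.6 in the wild type and 51.7 and 52.4 in the heterozygotes. The wild type stood highest here too, and the difference was -1.14 ± 0.07 (adjusted p = 0.00015), or 2.2-fold. This call rests on the title number being in the model: without it the adjusted p was 0.073, the highest of 22 alternatives, which reached down to 3.7e-05.

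Bmp4 (chromosome 14, 46383520 to 46390669, minus strand) measured 11, 9.98 and 9.62 FPKM in the 3 mutants and 21.5, 17.1 and 17 in the 3 controls. The mutants lay close together, and the difference was -0.83 ± 0.07 (adjusted p = 0.0017). Tfap2b, an AP-2 transcription factor of neural crest derivatives, measured 4.24, 3.37 and 3.37 FPKM in mutants and 16.5, 10.3 and 9.35 in controls. It fell by 1.56 ± 0.09 (adjusted p = 0.00012). Its control values stood in the same order as those of Pax9, with the wild type highest. For Pax9, Msx1, Bmp4 and Tfap2b the mutant of the wild-type set was likewise the highest mutant. A treated wild type and a treated heterozygote share a title number. There the wild type was higher for Pax9 (30 against 22.8 FPKM) and Tfap2b (10.2 against 9.15). For Msx1 it was lower (59.3 against 65.2).

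The promoter windows of these 3 genes are shown because they fell together; each is the 300 bases from 250 before to 50 after the annotated start (RefSeq, GRCm38.p6). They lie at chr5:37824536-37824835 on the minus strand for Msx1, chr14:46390620-46390919 on the minus strand for Bmp4 and chr1:19211804-19212103 on the plus strand for Tfap2b. Capitals mark TAATTG, a core bound by Msx homeodomains, on either strand.
Msx1: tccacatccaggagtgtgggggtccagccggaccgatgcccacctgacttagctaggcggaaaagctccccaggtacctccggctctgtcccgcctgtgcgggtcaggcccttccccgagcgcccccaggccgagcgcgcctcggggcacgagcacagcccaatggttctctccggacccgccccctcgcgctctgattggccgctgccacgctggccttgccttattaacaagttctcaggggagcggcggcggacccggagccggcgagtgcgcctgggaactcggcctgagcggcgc
Bmp4: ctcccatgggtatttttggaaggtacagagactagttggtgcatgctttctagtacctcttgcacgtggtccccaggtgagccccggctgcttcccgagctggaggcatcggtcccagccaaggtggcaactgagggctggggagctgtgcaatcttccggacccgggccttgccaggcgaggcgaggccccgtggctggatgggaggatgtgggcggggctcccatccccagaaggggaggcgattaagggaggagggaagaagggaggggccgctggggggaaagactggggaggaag
Tfap2b: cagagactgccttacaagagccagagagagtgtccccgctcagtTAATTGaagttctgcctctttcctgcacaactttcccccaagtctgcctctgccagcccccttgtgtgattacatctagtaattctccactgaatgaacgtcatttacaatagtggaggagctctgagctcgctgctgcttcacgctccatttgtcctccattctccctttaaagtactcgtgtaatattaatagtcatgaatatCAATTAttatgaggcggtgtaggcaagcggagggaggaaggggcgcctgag
The Tfap2b window held TAATTG 2 times, once on each strand, and the windows of Msx1 and Bmp4 did not hold it. Of the 74 genes 46 had a window, and 2 of those 46 (4.35%), Tfap2b and Tnc, held TAATTG on either strand, against 9.22% of all genes with a window. GTCACGC, a core of paired-domain sites, was in the windows of 2 of the 46 (4.35%), Tnc and Cldn10, against 2.43% of all genes, and CTTTGAT, a Lef/Tcf core, was in 0 of the 46 against 4.29%. No motif contains another, and each is a match of letters only.

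**Figure D2:**
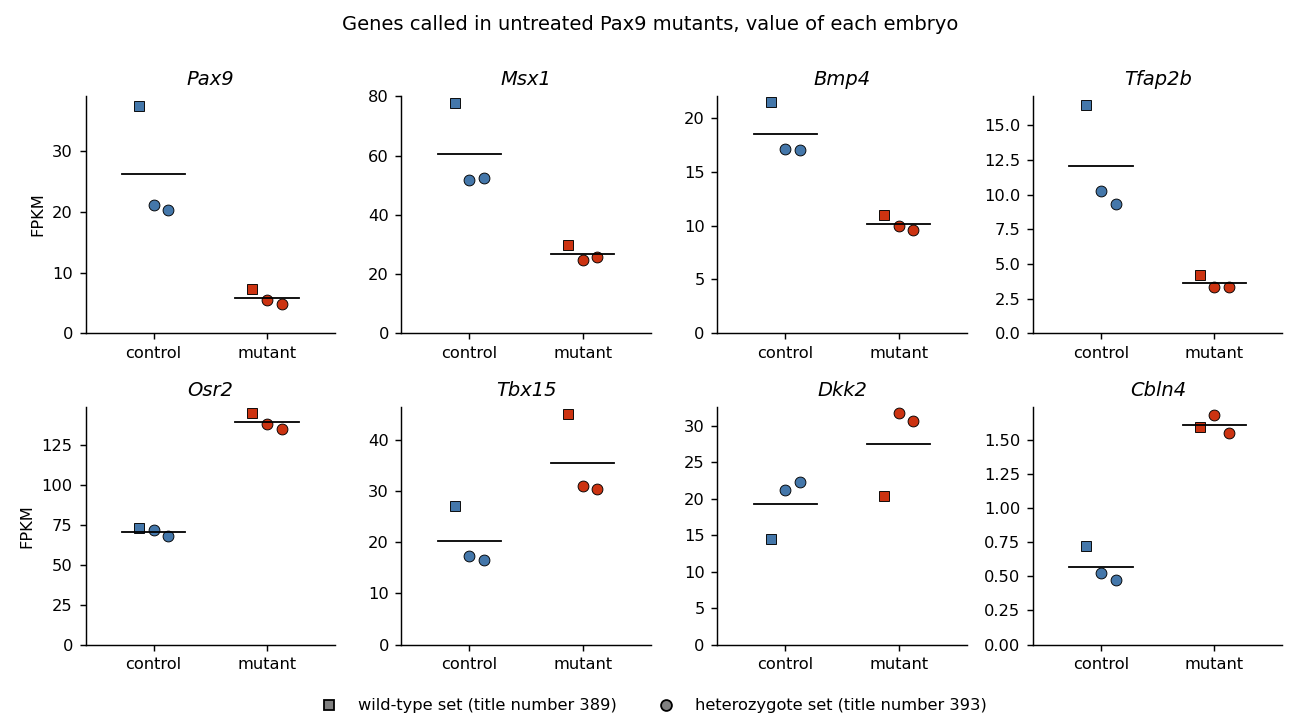
FPKM of 8 genes in each untreated embryo, controls in blue and mutants in red, squares for the wild-type set and circles for the heterozygote set; bars are means of 3. Pax9, Msx1, Bmp4 and Tfap2b are lower and Osr2 and Cbln4 higher in every mutant than in every control, while for Dkk2 the mutant of the wild-type set (20.3) lies below the heterozygotes (21.1 and 22.2) and above its own wild-type control (14.5).

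Among higher transcription factors Osr2 (chromosome 15, 35296098 to 35303305, plus strand) stood out in level. It measured 145.4, 138.7 and 135.4 FPKM in mutants and 72.9, 71.6 and 68 in controls. Both sets gave nearly the same difference (0.99 and 0.97), and the rise was 0.98 ± 0.15 (adjusted p = 0.031). The call was lost under many settings, including the omission of any 1 of the 6 untreated libraries and the model without title number (adjusted p = 0.051), with a range of 0.00051 to 0.17 over 22 alternatives. The difference itself stayed between 0.96 and 1. The residual spread of Osr2 also takes in the treated controls, which measured 71, 90.9 and 52.8 FPKM. Its paralogue Osr1 measured 54.3, 30.5 and 35.1 FPKM in mutants and 39.3, 28.6 and 30.1 in controls and did not pass (0.26, adjusted p = 0.3). Tbx15, a T-box factor of craniofacial and limb mesenchyme, rose by 0.8 ± 0.08 (adjusted p = 0.0044), from 27.1, 17.2 and 16.6 to 45, 31 and 30.3 FPKM. Sox9, which directs cartilage formation, rose by 0.42 ± 0.04 (adjusted p = 0.0044) with equal differences of 0.42 in both sets. The POU factor Pou3f4 rose by 0.75 (adjusted p = 0.038; lost under 13 of 21 settings) and its relative Pou3f3 fell by 0.48 (adjusted p = 0.02).

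Of 46 tested transcription factors with a known part in the palate, 1 rose (Osr2) and 4 fell (Pax9, Msx1, Tfap2b and Foxf1), beside 0.227% and 0.298% of all genes. The median was -0.07 against -0.01 over all genes. Among those that passed, Pax9 is the mutated gene, and Msx1 and Osr2 were set beforehand as markers of this comparison. Foxf1, a forkhead target of hedgehog signalling, fell by 0.39 (adjusted p = 0.031; lost under 9 of 22 settings). Some factors whose loss is known to cleft the palate gave small differences that did not pass: Tbx22 had -0.03 (adjusted p = 0.97), Shox2 -0.11 (0.64) and Barx1 0.24 (0.33). Outside that list the Iroquois factor Irx1 fell by 0.69 ± 0.11 (adjusted p = 0.034; lost under 10 of 22 settings).

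In the BMP pathway 1 of 37 tested genes rose and 5 fell, beside 0.227% and 0.298% of all genes. Among the 5, Bmp4 and Msx1 were set beforehand as markers of this comparison. Of 10 ligands Bmp4 fell, Bmp2 rose by 0.36 (adjusted p = 0.018, from 7.62, 9.16 and 8.35 to 9.49, 11.6 and 11.6 FPKM; lost under 9 of 22 settings) and 8 did not pass. Among those 8, Gdf7 measured 3.17, 2.91 and 2.94 FPKM in mutants against 1.5, 1.55 and 1.36 in controls, without overlap and short of the threshold (0.83, adjusted p = 0.082). Among 10 secreted antagonists 2 fell. Sostdc1, which binds BMP and also blocks Wnt co-receptors, fell by 0.82 ± 0.07 (adjusted p = 0.0024), from 46.4, 40.8 and 45.7 to 24.8, 23.5 and 26.3 FPKM. Bmper, a secreted BMP-binding protein, fell by 0.37 (adjusted p = 0.043; lost under 14 of 22 settings), and Grem1 had -0.77 (adjusted p = 0.052).

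Of 11 signal transducers and targets Msx1 and Id4 fell. Id4, which binds helix-loop-helix factors and blocks them, measured 13.2, 12.5 and 13 FPKM in mutants and 20.4, 19.3 and 17.7 in controls (-0.55 ± 0.08, adjusted p = 0.017, lost under 7 of 22 settings). Its relatives Id1, Id2 and Id3, which BMP signalling also induces, had positive differences of 0.25, 0.28 and 0.11 and did not pass. Limma called 0 of 6 receptors, with 0 at an unadjusted p under 0.05; Bmpr1a and Bmpr2 had 0.02 and -0.01. Over the 37 genes the median was 0.02.

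In the Wnt pathway 4 of 65 tested genes passed, 2 in each direction, beside 0.227% of all genes higher and 0.298% lower. Dkk2, a secreted inhibitor of the Wnt co-receptors, measured 20.3, 31.7 and 30.6 FPKM in mutants and 14.5, 21.1 and 22.2 in controls. The libraries of the wild-type set were lower in both genotypes, and the difference within the sets was 0.48 and 0.51 (0.5 ± 0.06, adjusted p = 0.013). Lgr5, a receptor for R-spondins, rose by 0.39 (adjusted p = 0.034). Lef1, a DNA-binding partner of beta-catenin, fell by 0.6 ± 0.09 (adjusted p = 0.025), from 4.5, 3.47 and 3.13 to 3.09, 2.13 and 1.71 FPKM, and the other fall was Sostdc1. The calls of Dkk2, Lgr5 and Lef1 were lost without title number in the model and without any 1 of the 6 untreated libraries. Dkk2 lost its call under 8 of 22 settings, Lgr5 under 12 of 22 and Lef1 under 10 of 21.

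Of 17 Wnt transducers and feedback targets 7 had a positive and 10 a negative difference, and Lef1 alone passed. Axin2, a feedback target, measured 14.3, 15.1 and 13.4 FPKM in mutants and 16.4, 13.5 and 13.9 in controls (-0.03 ± 0.07, adjusted p = 0.97). The antagonist Dkk1 measured 1.91, 11.9 and 12.6 FPKM in mutants and 2.3, 11.8 and 8.6 in controls, so its level followed title number more than genotype (0.11 ± 0.14, adjusted p = 0.92). None of the 16 ligands passed; Wnt5a came closest, with 16.3, 17.2 and 16.2 FPKM in mutants and 21.2, 21.1 and 20.1 in controls (-0.32, adjusted p = 0.058). Over the 65 genes the median was -0.03.

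Other pathways held few changes, given here beside 0.227% of all genes higher and 0.298% lower. Of 20 hedgehog genes Osr2 rose and Foxf1 fell, both described above as transcription factors, of 24 FGF genes 1 rose (Fgf12, an intracellular FGF homologue, 0.38, adjusted p = 0.042, lost under 14 of 21 settings), and of 18 retinoic acid genes 1 rose. That gene, Rdh10, encodes the retinol dehydrogenase of the first step of retinoic acid synthesis, and it went from 10.3, 9.81 and 9.45 to 13.2, 14.5 and 13.2 FPKM (0.45 ± 0.06, adjusted p = 0.017, lost under 6 of 22 settings). In the TGF-beta (19 genes), Notch (16), PDGF (6) and hyaluronan (16) lists limma called 0 genes, with 2, 4, 0 and 5 at an unadjusted p under 0.05, beside 9.33% of all genes.

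The tooth germ list had the lowest median of the whole lists examined. Of 27 tested genes 6 fell and 0 rose, beside 0.298% and 0.227% of all genes. The median was -0.5, and 7 had a positive difference, against 42.5% of all genes. The 6 include Pax9, the mutated gene, and Msx1 and Bmp4, which were set beforehand as markers of this comparison. In mesenchyme Pax9, Msx1 and Bmp4 fell, while Lhx6, Lhx8, Barx1 and Dlx1, which mark jaw and tooth mesenchyme, had differences of 0.22, 0.14, 0.24 and 0.14 that did not pass. In epithelium Sostdc1, Lef1 and Irx1 fell.

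Several tooth genes that did not pass had their largest gap between mutants and heterozygotes. Sp6, a zinc-finger factor of dental epithelium, measured 0.657 FPKM in the mutant and 0.724 in the wild type of the same set, and in the heterozygote set it measured 0.516 and 0.615 in mutants and 5.74 and 6.07 in heterozygotes. Fgf3, a dental mesenchyme signal, had 0.0517 FPKM in the mutant against 0.133 in the wild type, and 0.0367 and 0.0782 in mutants against 3.73 and 2.52 in heterozygotes. For both genes the untreated wild-type embryo was close to the mutants and the heterozygotes stood apart. Among treated controls Sp6 did not divide by genotype. It measured 7.87 FPKM in a wild type and 7.37 in the heterozygote of the same title number. The treated wild type of the other title number had 0.604. Ascl5, a helix-loop-helix gene, had 0.918 against 1.59 FPKM in the wild-type set, and 0.376 and 0.401 against 3.36 and 3.28 in the heterozygote set. Shh, the epithelial hedgehog ligand, had 5.59 against 5.01 FPKM in the wild-type set and 4.02 and 3.39 against 9.25 and 9.85 in the heterozygote set. For Shh the mutant of the wild-type set was above its control while both other mutants were below theirs. None of these 4 passed in the blocked fit (adjusted p = 0.28 for Sp6, 0.21 for Fgf3, 0.12 for Ascl5 and 0.5 for Shh). Limma's contrast within the heterozygote set took its spread from the 8 libraries of one column prefix. The other libraries were single for their title number and genotype and added none. This contrast was applied after these values were seen. It called 49 genes (0.347% of genes tested), all 4 among them. The differences were -2.59 for Sp6 (adjusted p = 0.00036), -2.68 for Fgf3 (0.0033), -2.1 for Ascl5 (0.0061) and -1.26 for Shh (0.0048). The 4 were picked for their gap in these same libraries, so these calls are no separate support.

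**Figure D3:**
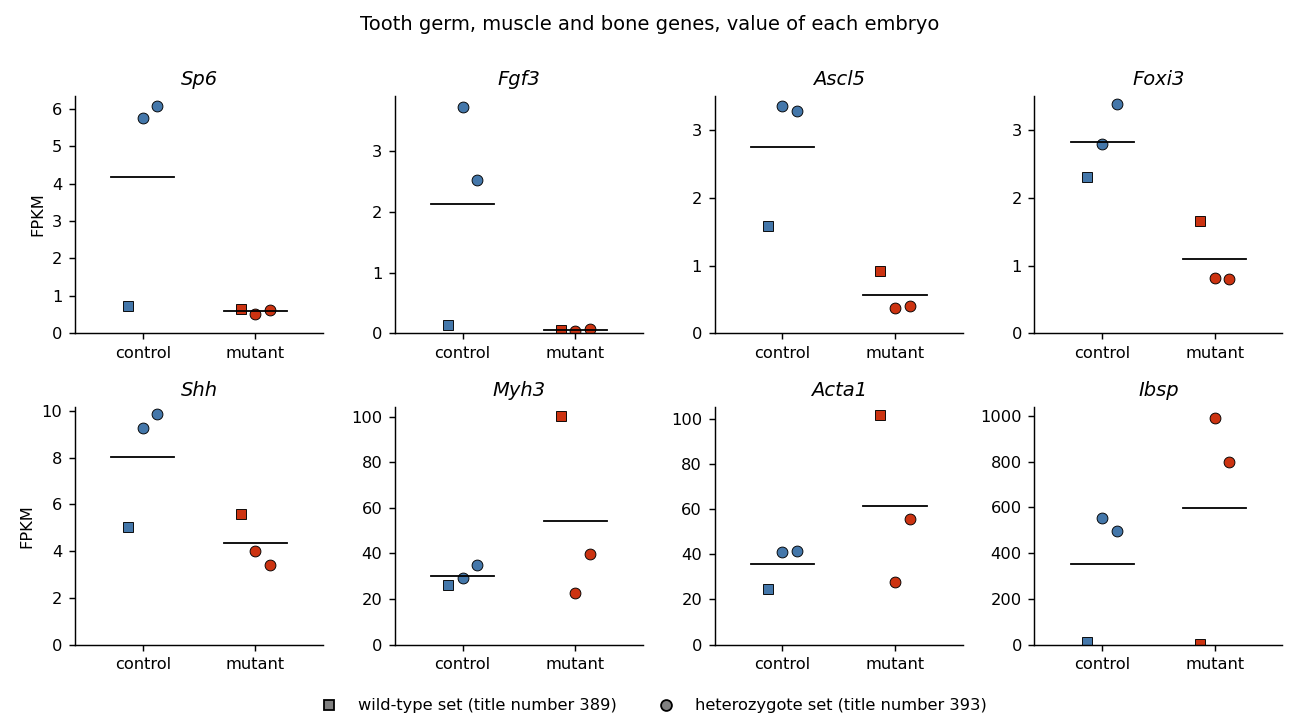
FPKM of 8 genes in each untreated embryo, controls in blue and mutants in red, squares for the wild-type set and circles for the heterozygote set; bars are means of 3. For Sp6 and Fgf3 the wild type sits near the mutants, for Myh3 and Acta1 the mutant of the wild-type set is the highest, and for Ibsp both libraries of the wild-type set are at or below 11.6 while those of the heterozygote set lie between 497.6 and 990.3.

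Epithelial genes had mostly negative differences. Of 32 oral epithelium genes 30 had a negative difference, against 57.5% of all genes, with a median of -0.27. With median-ratio rescaling 29 of the 32 were negative, with a median of -0.25. Of the 32, 2 fell and 0 rose, beside 0.298% of all genes lower, and 21 had an unadjusted p under 0.05, beside 9.33% of all genes. The 2 were desmosome components: Dsc3, a desmosomal cadherin, went from 8.13, 15.2 and 16.2 to 4.19, 7.79 and 7.2 FPKM (-0.97 ± 0.1, adjusted p = 0.0044), and the plaque protein Pkp1 from 7.79, 22.3 and 23.6 to 5.08, 17.8 and 15.8 (-0.48, adjusted p = 0.025, lost under 8 of 22 settings). The summed level of the list was 610 FPKM in the mutant and 893 in the wild type, and 1345 and 1312 in mutants against 1474 and 1565 in heterozygotes. Every mutant was thus below the controls of its set in this sum, and the part of this in the falls of Dsc3, Pkp1, Sostdc1, Irx1 and the other epithelial genes was not tested. The differences of Dsc3 were -0.88 in the wild-type set and -1.02 in the heterozygote set, beside list medians of -0.39 and -0.21. Periderm genes had a median of -0.22 over 11 genes, and limma called 0 of them, with 4 at an unadjusted p under 0.05.

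Cell cycle genes had small negative differences. Of 20 genes of G2 and M phase all 20 had a negative difference, against 57.5% of all genes, with a median of -0.18. Limma called 0 of them, with 18 at an unadjusted p under 0.05, beside 9.33% of all genes. Ube2c had -0.23, Aurkb -0.21, Tpx2 -0.2 and Mki67 -0.16. All 17 S phase genes were negative as well, with a median of -0.08 and 3 at an unadjusted p under 0.05. The count of 20 negative differences held with median-ratio rescaling, with the model of recovered reads and after leaving out any 1 of the untreated libraries. Cdca5, a cohesin regulator outside the list, fell by 0.25 (adjusted p = 0.048).

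**Figure D4:**
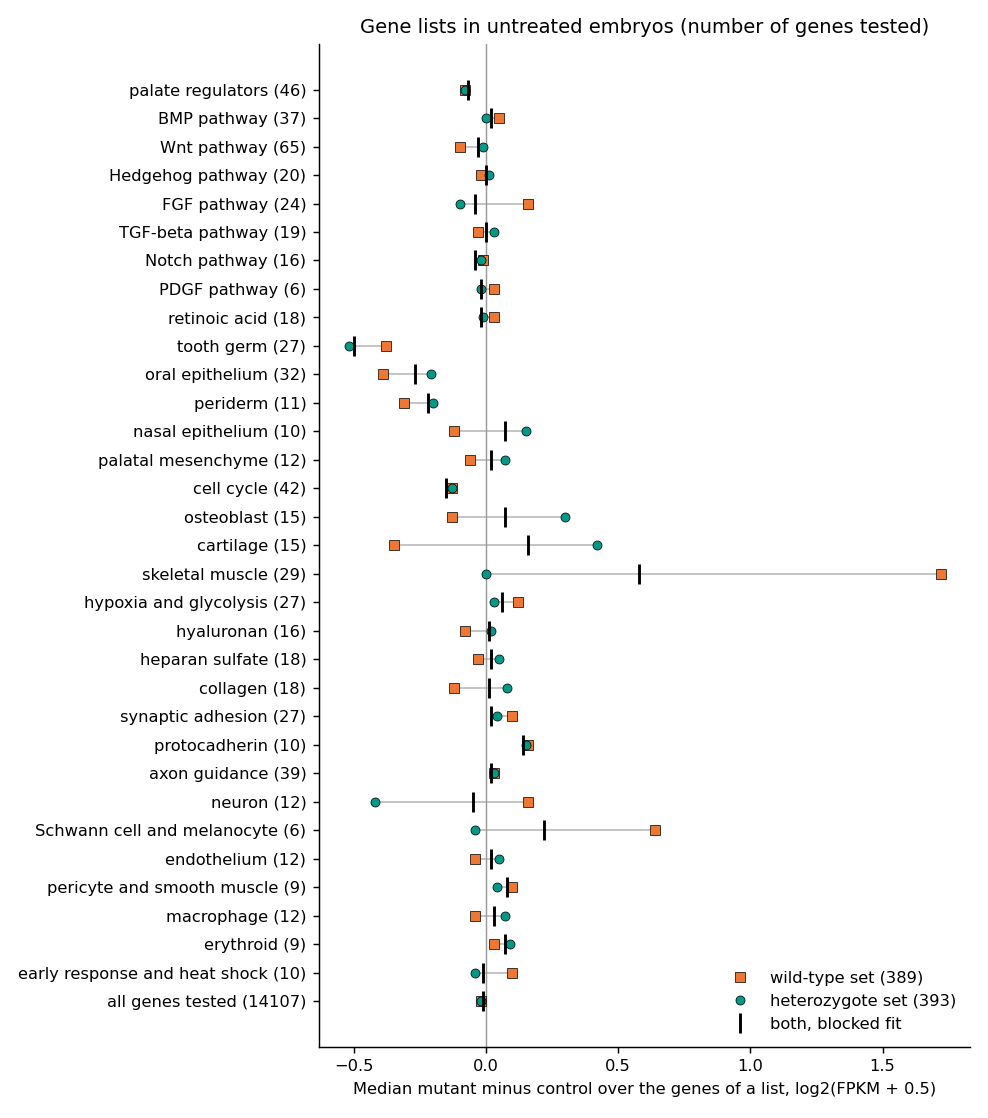
Median difference of mutant minus control over the genes of each list within the wild-type set (squares), within the heterozygote set (circles) and in the blocked fit (bars), on the log2(FPKM + 0.5) scale, with the number of genes tested in brackets. Tooth germ, oral epithelium, periderm and cell cycle lists lie below 0 in both sets, and the skeletal muscle list is at 1.72 within the wild-type set and 0 within the heterozygote set.

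Lists of other tissues differed in median between the 2 sets. Skeletal muscle genes had a median of 1.72 within the wild-type set and 0 within the heterozygote set, with summed levels of 1287 FPKM in the mutant and 385 in the wild type, and of 346 and 563 in mutants against 441 and 451 in heterozygotes. In this sum 1 library, the mutant of the wild-type set, stood apart, and the wild type was near the heterozygotes. The myosin gene Myh3 and the actin gene Acta1 reached their highest value in that mutant. Limma called 0 of the 29 muscle genes, with 4 at an unadjusted p under 0.05. Cartilage genes had a median of -0.35 within the wild-type set and 0.42 within the heterozygote set, and osteoblast genes -0.13 and 0.3. Sox9 was the only gene of those 3 lists that passed, and it rose equally in both sets. Col22a1, a collagen of tissue junctions, rose by 0.81 (adjusted p = 0.013) from a base that itself followed title number: 0.717 FPKM in the wild type and 1.42 in the mutant of its set, and 9.88 and 9.38 in heterozygotes and 19.6 and 16.8 in their mutants.

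FGF response genes took opposite signs in the 2 sets. All 10 had a positive difference against the wild type (median 0.19) and all 10 a negative one against the heterozygotes (median -0.18). The ETS factor Etv4 had 0.24 and -1.43, Spry4 0.52 and -0.38, and the phosphatase Dusp6 0.01 and -0.77. None passed in the blocked fit, and none passed in the test of the difference between the sets.

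That test asked for every gene whether the mutant effect differed between the sets, and 5 of 14107 genes passed (0.0354%), with 780 at an unadjusted p under 0.05. They were Sp6, Metrnl, Ibsp, Dlx1as and Mir5130. The wild-type set held 1 mutant and 1 control, so the spread between its embryos was not measured in this test. Ibsp, a bone matrix protein, measured 3.88 FPKM in the mutant and 11.6 in the wild type, and 990.3 and 796.6 in mutants against 551.7 and 497.6 in heterozygotes. The libraries of the heterozygote set were far above the others in both genotypes, and the difference was -1.47 within the wild-type set and 0.76 within the heterozygote set. None of the 5 was among the 74, and refitting on the 6 untreated samples alone called 0 of them.

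Outside the pathways the largest falls included enzymes, a transporter and secreted proteins. Hs3st6, a sulfotransferase that modifies heparan sulfate, measured 1.08, 1.47 and 1.31 FPKM in mutants and 3.91, 4.97 and 5.47 in controls (-1.56 ± 0.12, adjusted p = 0.00089). It was the only one of 18 heparan sulfate genes that passed, and here the wild type was the lowest control. C1qtnf3, a secreted C1q-domain protein, fell by 1.29 (adjusted p = 0.017), the adenylate cyclase Adcy8 by 1.2 (adjusted p = 0.017) and the choline transporter Slc5a7 by 1.09 (adjusted p = 0.017). C1qtnf3 lost its call under 7 of 22 settings, Adcy8 under 4 of 21 and Slc5a7 under 5 of 21. Slc5a7 had 1.29 against 2.22 FPKM in the wild-type set and 0.75 and 0.826 against 2.69 and 2.81 in the heterozygote set. Prr15 fell by 0.85 (adjusted p = 0.0031), the phospholipase Pla2g7 by 0.85 (adjusted p = 0.017), the tissue factor gene F3 by 0.67 (adjusted p = 0.0069) and the collagen Col23a1 by 0.52 (adjusted p = 0.0035).

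Some genes best known from neurons rose. Of 27 neuronal and synaptic surface proteins 4 rose and 1 fell, beside 0.227% and 0.298% of all genes. The list median was 0.02, with 17 positive and 10 negative differences. Cbln4, a secreted synapse organiser, measured 1.59, 1.68 and 1.55 FPKM in mutants and 0.719, 0.52 and 0.474 in controls (0.98 ± 0.11, adjusted p = 0.0049). Brinp3 (0.79), the teneurin Tenm1 (0.68, lost under 13 of 21 settings) and the leucine-rich repeat protein Lrrtm3 (0.63) rose as well, and Lrrtm1, a relative of Lrrtm3, fell from 13.4, 12.5 and 12.8 to 7.92, 7.93 and 7.77 FPKM (-0.68 ± 0.05, adjusted p = 0.0012). The neurofilament gene Nefm had the largest rise, from 2.23, 1.88 and 1.59 to 6.81, 4.28 and 8.38 FPKM (1.5 ± 0.26, adjusted p = 0.043), and the call was lost under 13 of the 22 settings. Of 12 neuron markers Nefm alone passed, with a list median of -0.05 and no shared direction (6 positive and 6 negative differences); Tubb3 had -0.96. The summed level of these markers was 41.8, 32.6 and 78.7 FPKM in mutants and 29.7, 64.2 and 52 in controls, and their part in the rise of Nefm was not tested.

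Other rises included Rgs5 of pericytes (0.51, adjusted p = 0.0069), Chodl (0.64, adjusted p = 0.0039), the thymic nuclear factor Tox (0.49, adjusted p = 0.021), the matrix protein Tnc (0.39, adjusted p = 0.048) and the angiotensin receptor Agtr2 (0.37, adjusted p = 0.024). Of the other pericyte and smooth muscle genes none passed.

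By position, 5 of the 74 genes (6.76%) had another called gene within 500 kb, against 3.78% of 13931 tested genes with a position. Msx1 lies 103 kb from Stk32b, a kinase gene that fell by 0.92 ± 0.11 (adjusted p = 0.007), and 214 kb from Stx18, a syntaxin gene that fell by 0.3 (adjusted p = 0.049). Cytl1, between Stk32b and Msx1, had 0.31 ± 0.47 (adjusted p = 0.94). Evc, Evc2, Nsg1 and Lyar, on either side of them, had differences of -0.04, 0.06, -0.08 and -0.14 and did not pass. Dclk3 and Stac lie 72 kb apart on chromosome 9 and fell by 0.83 and 0.91 (calls lost under 8 of 21 and 9 of 22 settings). No other gene tested within the same distance of Pax9, Osr2 or Bmp4 passed.

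The 6 embryos of the treated arm share no sample with the untreated ones, but both arms share 1 estimate of the residual spread for each gene, so passing in one is not independent of passing in the other. In the treated arm the same contrast gave the same sign for 72 of the 74 genes, against 62.9% of all genes, the exceptions being Hist1h1c and Mir671. Of the 67 genes called in the 6 untreated samples alone, 66 had the same sign there. In the treated arm 1420 genes passed (10.1% of genes tested), a count that was unsteady, with 63 genes without title number in the model and 107 to 3528 when single libraries were left out. The differences were -2.09 for Pax9, -1.52 for Msx1, -1.26 for Bmp4, -1.5 for Tfap2b and 0.89 for Osr2. Among the 74, the difference was larger in size in the treated arm for 36 and smaller for 38. Limma called 0 genes for a difference between the arms (smallest adjusted p = 0.186), with 1540 at an unadjusted p under 0.05, and the model of recovered reads also called 0. Nefm (0.55), Col22a1 (0.18), Hrc (0.27), Mamdc2 (0.02) and St6gal2 (-0.08) passed in untreated and not in treated embryos, as did Hist1h1c (-0.13) and Mir671 (-0.1), and the test between arms called none of them.

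**Figure D5:**
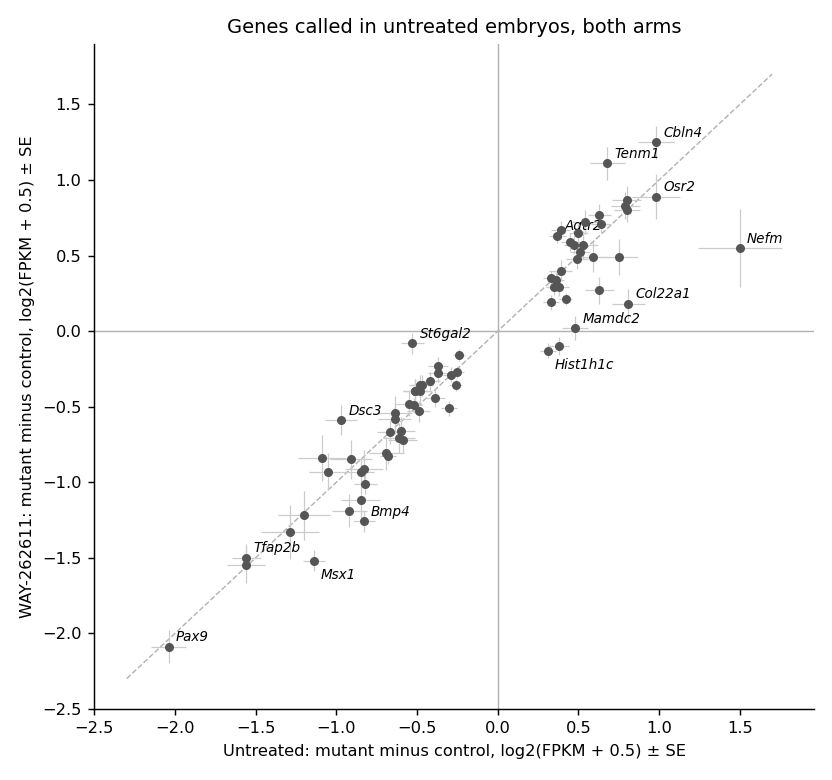
Mutant minus control in untreated embryos (x axis) and in the WAY-262611 arm (y axis) for the 74 genes called in untreated embryos, on the log2(FPKM + 0.5) scale with standard errors; the dashed line marks equal differences. Of the 74 points 72 have the same sign on both axes, and Nefm and Col22a1 lie furthest below the line among the rises.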

How the data were processed

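Per the labels' protocols, palate shelves of 12 single embryos gave total RNA (RNeasy), which went into TruSeq libraries after oligo(dT) selection. The authors deposited FPKM values for 19083 genes. The submitters' processing notes name Novoalign 2.08.03, DESeq2 and the build mm10. For the counting tool, annotation and strand setting nothing is given in the sources used here. Without a known strand setting, values of overlapping antisense genes such as Dlx1as are uncertain. Whole reads were recovered from the deposited FPKM values for 19082 of 19083 genes (99.99%, within 0.001 read), and the read totals serve as depth (36.79 to 49.81 M). No 2 libraries of a group were copies (chi-square per degree of freedom 4.35 to 103.37).

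Genes with at least 1 FPKM in 3 samples were kept (14107), a pseudocount of 0.5 was added, and log2 values were fitted with limma 3.58.1 in R 4.3.3 (moderated with a trend, all 12 samples, title number as block, mutant effects by treatment, 6 residual degrees of freedom). P-values are two-sided, with Benjamini-Hochberg adjustment and a threshold of 0.05. The difference between the wild-type and heterozygote sets used means of title number by genotype (4 residual degrees of freedom). Those 4 came from the 8 libraries of one column prefix, as the other libraries were single for their title number and genotype. The labels do not say in words what a title number stands for; same-titled samples deviated together (r = 0.749 untreated, 0.833 treated), but with 2 title numbers per treatment the pairing rests on the shared number. P-values of the main fit rest on the spread between single embryos and on how far the mutant effect differed between title numbers. The treated controls of title number 422 were a Pax9+/- and a Pax9+/+ embryo, and their difference enters that spread. Names and positions came from GENCODE M21 (GRCm38; 18752 genes matched) and promoter windows from RefSeq. Fits were tested on simulated data. Alternatives were pseudocounts, filters, median-ratio rescaling, moderation without a trend, the untreated samples alone, the 8 libraries of one column prefix alone, limma-voom on recovered reads, no block, and each library left out.

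The comparison and the 34 gene lists were chosen with earlier results of these data known. Named genes were among genes that passed, carried an established symbol and did not overlap within title number, up to 15 with the largest rise and 15 with the largest fall, plus fixed developmental genes and list members that passed. Other genes named (F3, Tox, Tnc, Agtr2, Pou3f3, Cdca5, Stx18, St6gal2, Mamdc2, Hist1h1c and Mir671) were chosen after their values were seen, as were list members named without a call.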

Additional observations from a re-analysis of the deposited data

Results flagged for a closer look

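The mutant effect differed between the wild-type and heterozygote sets for 5 genes in limma's test of that difference. The difference of log2 effects, wild-type set minus heterozygote set, was 2.51 for Sp6 (adjusted p = 0.012), 3.55 for Dlx1as (adjusted p = 0.012), -2.23 for Ibsp (adjusted p = 0.047), -1.61 for Mir5130 (adjusted p = 0.03) and -1.01 for Metrnl (adjusted p = 0.047). The wild-type set held 1 mutant and 1 control, so the spread between its embryos was not measured. These p-values took their spread from the 8 libraries of the other column prefix. Sp6 and Dlx1as were lower in mutants than in heterozygous controls (differences of -2.59 and -2.79), and had -0.08 and 0.76 within the wild-type set. Mir5130 rests on 10 to 25 recovered reads per untreated library. Dlx1as lies antisense to Dlx1, and its reads cannot be separated from those of overlapping genes without a known strand setting. Among untreated embryos the genotype of the control, the title number and the column prefix change together and cannot be told apart. A treated Pax9+/- and a treated Pax9+/+ control share a title number and the column prefix of the heterozygote set. They measured, in that order, 7.37 and 7.87 FPKM for Sp6, 8.55 and 9.73 for Dlx1as, and 631.6 and 723.2 for Ibsp. For Metrnl they measured 18.3 and 17.7. The treated wild type of the other prefix had 0.604, 4.37, 23 and 6.15. For Mir5130 the treated controls were close (2.1 to 2.38). Which of these the difference follows was not tested.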

How the results depend on the processing

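The untreated comparison called 74 genes, and 67 to 79 under other pseudocounts, filters, median-ratio rescaling, moderation without a trend and the 6 untreated samples alone. Fewer of the calls were shared: 45 of the 67 in the 6 untreated samples alone and 56 of the 71 with a filter of 5 FPKM were among the 74. Without the title number block it called 13 (2 higher, 11 lower), with limma-voom on recovered reads 127 (60 higher, 67 lower), and with the 8 libraries of one column prefix alone 50 (14 higher), 20 of them among the 74. Leaving out 1 library gave 17 to 149 called, 5 to 61 higher and 12 to 88 lower; the counts were 17 without untreated control 3, 24 without control 2 and 24 without mutant 3. Median-ratio rescaling gave 38 higher among 73. For the treated arm the count was 63 without the block, 285 with those 8 libraries alone, and 107 to 3528 with 1 library left out. The difference between arms stayed at 0 calls except for 1 gene when a treated control was left out (range 0 to 1). The difference between the wild-type and heterozygote sets called 3 genes at a pseudocount of 1, 2 without a filter, 3 with median-ratio rescaling, 2 with limma-voom, 0 in the untreated samples alone and 0 to 8 with 1 library left out. Of the named genes, differences with no call changed sign for Dkk1 (-0.06 to 0.27 with 1 library left out), Axin2 (-0.1 to 0.05 with 1 library left out, 0.05 in the 8 libraries alone) and Tbx22 (-0.07 to 0.02 with 1 library left out). The cause was not tested.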
